A study of Caenorhabditis elegans with 10 samples.

Results

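The genes described here are the superoxide dismutases sod-1 to sod-5 and the catalases ctl-1 and ctl-2 of the nematode Caenorhabditis elegans. Of these 7 genes, 6 are among the 17118 genes of the array with a probe set of their own, and ctl-1 has a shared one. They were chosen by symbol, with every probe set that carries the symbol, which gave 7 of 22548 non-control probe sets. Each of sod-1 to sod-5 and ctl-2 had 1 probe set. The only probe set of ctl-1 is annotated to ctl-1 and ctl-3 together, is written ctl-1/ctl-3 below and speaks for neither gene alone. The genes ctl-2, ctl-1 and ctl-3 are direct neighbours in the genome annotation. All 7 probe sets passed the filter on low values, a mean log2 level of at least 2.60.

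Superoxide is made when electrons leak from the respiratory chain onto oxygen. Superoxide dismutases turn it into hydrogen peroxide, and catalases turn hydrogen peroxide into water and oxygen. In this worm sod-1 encodes the main cytosolic copper and zinc enzyme, sod-5 a further cytosolic copper and zinc enzyme, sod-4 an extracellular one, and sod-2 and sod-3 the manganese enzymes of the mitochondrial matrix. The gene ctl-2 encodes the peroxisomal catalase and ctl-1 a cytosolic one, while sod-3 is widely used as a reporter of DAF-16, the FOXO transcription factor of insulin signalling.

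Whole worms, predominantly young adults, were measured on 10 Affymetrix arrays, each with RNA pooled from 3 biological replicates, to look for metabolic pathways downstream of defects in the electron transport chain (ETC). Wild-type N2 (Bristol) and the missense mutants gas-1 (fc21) of complex I, mev-1 (kn1) of complex II and isp-1 (qm150) of complex III were raised on OP50 plates and then in K12 liquid culture, with 1 array each. N2 animals fed RNAi bacteria against the complex I genes F22D6.4 (nduf-6), Y45G12B.1 (nuo-5), C34B2.8 (ndua-13), Y56A3A.19 (ndab-1) or D2030.4 (ndub-7) for 2 generations on plates and a further one in liquid, all with 5 mM IPTG, had 1 array each, and their control was N2 raised on HT115 on plates and in liquid. The label of that control mentions neither IPTG nor an empty vector, so RNAi feeding and these additions cannot be told apart. The label of isp-1 gives the same sequence name, T07C4.7, as that of mev-1.

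The labels were checked on the targeted genes. The target stood at 51.9% of the HT115 wild type in the nuo-5 RNAi array, at 70.5% in ndua-13, at 83.9% in nduf-6 and at 88.5% in ndub-7, but at 210.7% in the array labelled ndab-1 RNAi, which goes against its label, while a second ndab-1 probe set stood at 88.3%. That array is called by its label throughout. Missense mutants need not change their own mRNA, and the gene named in the label stood at 130.8% of the K12 wild type for gas-1, 94.0% for mev-1 and 113.3% for isp-1, on the probe set with the highest mean, which checks nothing about the mutation. Markers of sperm, oocytes, intestine, muscle, neurons, hypodermis and moulting were read as well, and 7 of 12 sperm markers and all members of the other lists had a probe set past the filter. Levels in whole animals cannot tell fewer cells of a type from less RNA per cell.

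Of the 7 probe sets, sod-3 and sod-5 varied most between arrays and sod-1 and ctl-2 least. Over the 10 arrays the SD of the log2 level was 1.49 for sod-3 and 1.44 for sod-5, and only 1.13% and 1.28% of the 16911 probe sets tested had a larger one. The SD was 0.42 for sod-4, 0.33 for ctl-1/ctl-3, 0.27 for sod-2, 0.13 for sod-1 and 0.13 for ctl-2, against a median of 0.29 over all probe sets tested. For sod-1 and ctl-2, 89.1% and 88.5% of the probe sets had a larger SD.

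**Figure D1:**
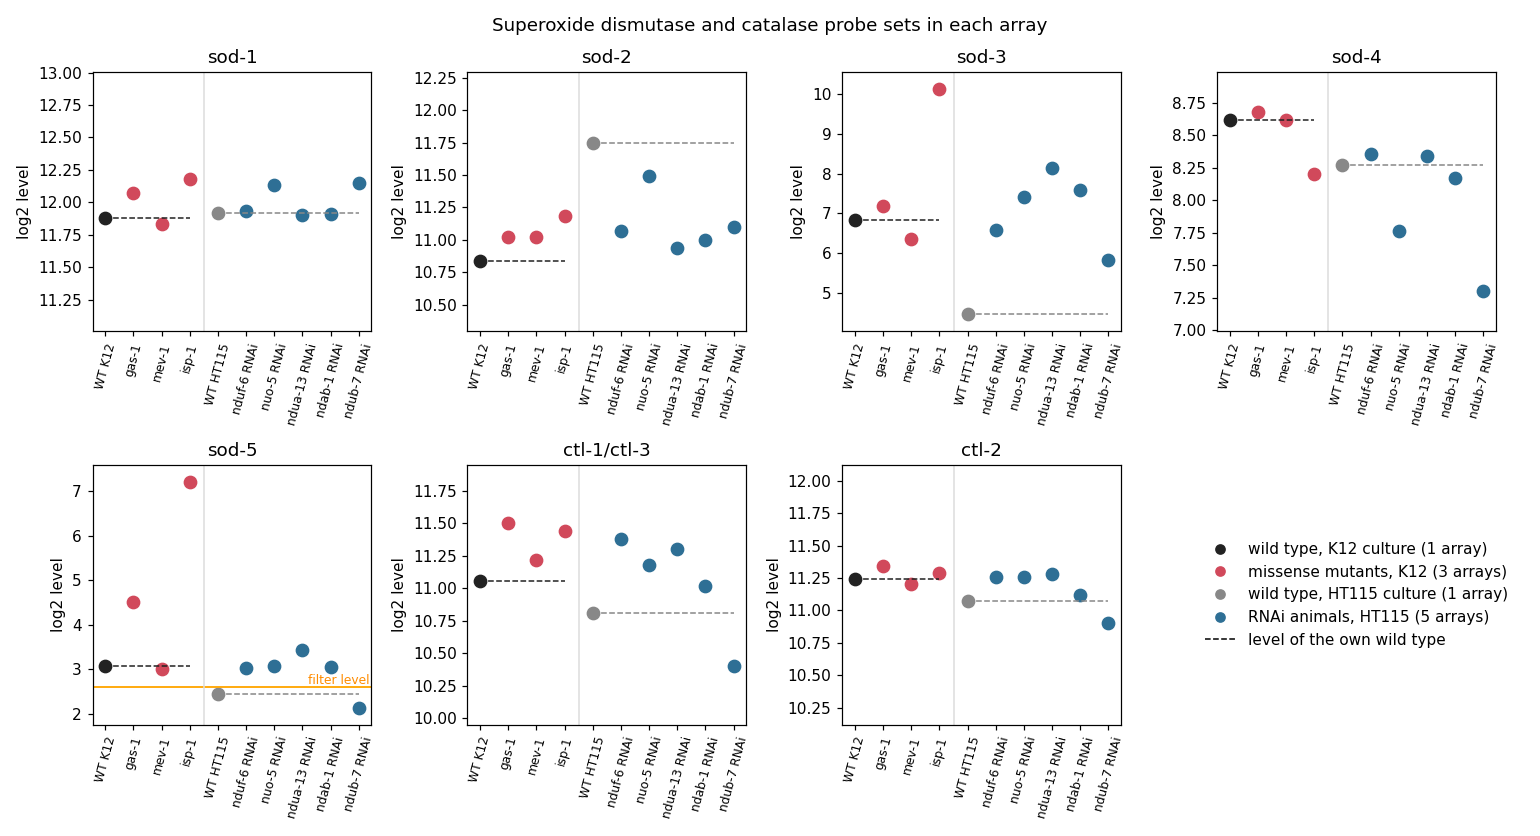
Normalised log2 level (vertical axis) of each probe set in each of the 10 arrays (horizontal axis), with a separate vertical scale in each panel. Points are single arrays without error bars, dashed lines mark the wild type of the same culture, and the orange line marks the filter level of 2.60. The isp-1 point stands at 10.14 for sod-3 and 7.20 for sod-5, above the other 9 arrays in both panels.

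The mitochondrial manganese enzyme gene sod-3 was far above wild type in isp-1 and in all RNAi animals other than ndub-7, but not in gas-1 or mev-1. In ndub-7 RNAi it was above wild type by less. On K12 its log2 level was 6.84 in the wild type, with gas-1 at 7.18, mev-1 at 6.36 and isp-1 at 10.14. The isp-1 array was therefore 9.86-fold above its wild type (a log2 difference of 3.30), while gas-1 was 1.27-fold above it and mev-1 1.40-fold below. Within the missense mutants isp-1 stood 7.80-fold above gas-1 and 13.8-fold above mev-1.

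In HT115 culture sod-3 was lowest in the wild type, at 4.46, and stood at 6.59 in nduf-6 RNAi, 7.41 in nuo-5, 8.14 in ndua-13, 7.58 in ndab-1 and 5.84 in ndub-7. All 5 RNAi arrays were thus above their wild type, a pattern shown by 15.01% of the probe sets tested. Their folds were 4.37 for nduf-6, 7.73 for nuo-5, 12.8 for ndua-13, 8.64 for ndab-1 and 2.60 for ndub-7. In nduf-6, nuo-5, ndua-13 and ndab-1 RNAi, between 0.367% and 0.585% of the probe sets stood as far above wild type as sod-3 did, and in ndub-7 RNAi 7.10% did. In isp-1 the share was 0.195%, or 33 probe sets.

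The 2 wild types themselves differed in sod-3: the K12 array was 5.19-fold above the HT115 array, and 0.615% of the probe sets differed by as much in either direction. The level of 6.84 in the K12 wild type lies within the range of the RNAi arrays, 3 of which were above it and 2 below. From lowest to highest, the 10 arrays ran HT115 wild type, ndub-7 RNAi, mev-1, nduf-6 RNAi, K12 wild type, gas-1, nuo-5 RNAi, ndab-1 RNAi, ndua-13 RNAi and isp-1. Of the 9 gaps between neighbours, 2 were wider than the SD of the 5 RNAi arrays (0.90): that of 1.38 above the HT115 wild type and that of 2.00 below isp-1.

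The cytosolic copper and zinc enzyme gene sod-5 was highest in isp-1 and next highest in gas-1. On K12 the wild type had a log2 level of 3.07, while gas-1 had 4.52, mev-1 had 3.00 and isp-1 had 7.20. The isp-1 array was 17.5-fold above its wild type and gas-1 2.73-fold, whereas mev-1 differed from it by -0.07 (log2). Only 15 probe sets, 0.0887% of those tested, stood as far above wild type in isp-1, and 1.84% did in gas-1.

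In HT115 culture sod-5 stood at 2.44 in the wild type, 3.02 in nduf-6 RNAi, 3.07 in nuo-5, 3.44 in ndua-13, 3.05 in ndab-1 and 2.14 in ndub-7. The HT115 wild type and ndub-7 RNAi were under the filter level of 2.60, and the K12 wild type was not far above it, so the size of a fold against them is uncertain. The RNAi arrays overlapped the wild type, with 4 above it and 1 below. Of the 9 gaps between neighbouring arrays, 3 exceeded the SD of the RNAi arrays (0.48), among them those below gas-1 (1.08) and below isp-1 (2.69). Over the 10 arrays the levels of sod-3 and sod-5 correlated with r = 0.83, and with r = 0.60 over the 9 arrays without isp-1, as a description of arrays that share cultures.

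The second mitochondrial manganese enzyme gene, sod-2, stood slightly above wild type in the missense mutants and below it in the RNAi animals. On K12 its log2 level was 10.84 in the wild type, with gas-1 at 11.02, mev-1 at 11.02 and isp-1 at 11.18. In HT115 culture it was 11.75 in the wild type, 11.07 in nduf-6 RNAi, 11.49 in nuo-5, 10.94 in ndua-13, 11 in ndab-1 and 11.10 in ndub-7. The missense and RNAi arrays thus overlapped, between 10.94 and 11.49, and the 2 wild types were the lowest and the highest of the 10 arrays.

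The RNAi arrays were below their wild type in 5 of 5, by 1.60-fold in nduf-6, 1.198-fold in nuo-5, 1.75-fold in ndua-13, 1.68-fold in ndab-1 and 1.57-fold in ndub-7, and 17.8% of the probe sets tested shared the pattern of all 5 below. The missense arrays were above theirs in 3 of 3, by 1.13-fold in both gas-1 and mev-1 and by 1.26-fold in isp-1, a pattern shared by 24.3% (26.3% had all 3 below). Between the wild types sod-2 was 1.88-fold higher on HT115, and 8.33% of the probe sets differed as much. All 5 RNAi arrays stood above the K12 wild type.

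The extracellular enzyme gene sod-4 was lowest in ndub-7 RNAi. On K12 it stood at 8.62 in the wild type, with gas-1 at 8.68, mev-1 at 8.62 and isp-1 at 8.20, so that isp-1 was 1.33-fold below wild type. In HT115 culture it stood at 8.27 in the wild type, 8.36 in nduf-6 RNAi, 7.76 in nuo-5, 8.34 in ndua-13, 8.17 in ndab-1 and 7.30 in ndub-7. The ndub-7 array was 1.95-fold below its wild type, and the RNAi arrays lay on both sides of it.

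The main cytosolic enzyme gene sod-1 differed little between arrays. It stood at 11.88 in the K12 wild type, with gas-1 at 12.07, mev-1 at 11.83 and isp-1 at 12.18. In HT115 culture it stood at 11.92 in the wild type, 11.93 in nduf-6 RNAi, 12.13 in nuo-5, 11.90 in ndua-13, 11.91 in ndab-1 and 12.15 in ndub-7. Its largest difference from the own wild type was 0.30 (log2), in isp-1, and both groups overlapped their wild type. Its probe set, like those of ctl-2 and ctl-1/ctl-3, is of the Affymetrix type whose probes can match more than 1 transcript.

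The catalase probe sets were lowest in ndub-7 RNAi and otherwise mostly at or above wild type. For ctl-1/ctl-3 the K12 wild type stood at 11.06, gas-1 at 11.50, mev-1 at 11.22 and isp-1 at 11.44, all 3 mutants above it. In HT115 culture ctl-1/ctl-3 stood at 10.81 in the wild type, 11.38 in nduf-6 RNAi, 11.18 in nuo-5, 11.30 in ndua-13, 11.02 in ndab-1 and 10.40 in ndub-7, so 4 of 5 were above wild type and ndub-7 was 1.33-fold below it. The largest difference above wild type was 1.49-fold, in nduf-6 RNAi.

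The peroxisomal catalase gene ctl-2 kept to a narrower range. It stood at 11.24 in the K12 wild type, with gas-1 at 11.34, mev-1 at 11.20 and isp-1 at 11.29. In HT115 culture it stood at 11.07 in the wild type, 11.26 in nduf-6 RNAi, 11.26 in nuo-5, 11.28 in ndua-13, 11.12 in ndab-1 and 10.90 in ndub-7. No array differed from its own wild type by more than 1.16-fold. The ctl-2 and ctl-1/ctl-3 values correlated with r = 0.96 over 10 arrays and 0.90 over the 9 without ndub-7 RNAi, and how far their probes detect the same transcripts was not tested.

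The ndub-7 RNAi array, lowest for sod-4, sod-5 and both catalase probe sets, also had the largest shifts of the mutant arrays in several marker lists. Its sperm markers stood above the HT115 wild type by a median of 2.27 (log2; 7 of 7), its moulting markers by 1.02 (7 of 7), and its oocyte markers at -0.81 (10 of 10 lower). Its pharynx muscle markers stood 1.23 above (5 of 5) and its intestine markers 1.02 above (7 of 10). The log2 of the summed unlogged levels of the sperm markers ranged from 7.92 to 11.6 over the RNAi arrays, against 9.37 in their wild type. Over the missense arrays it ranged from 9.72 to 10.996, against 10.218 in the K12 wild type. In nduf-6 RNAi the sperm markers stood at -1.92 (6 of 7 lower) and the oocyte markers at 0.38 (10 of 10 higher). In the missense mutants pharynx muscle markers were lower in 5 of 5, with medians of -0.82 for gas-1, -0.43 for mev-1 and -0.64 for isp-1. Body wall muscle markers were lower in 6 of 6 in each missense mutant, with medians from -0.37 to -0.19. The part of these markers in the enzyme values was not tested. Without ndub-7 RNAi the mean difference of the RNAi arrays from wild type was 0.42 in place of 0.25 for ctl-1/ctl-3, and -0.11 in place of -0.28 for sod-4.

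**Figure D2:**
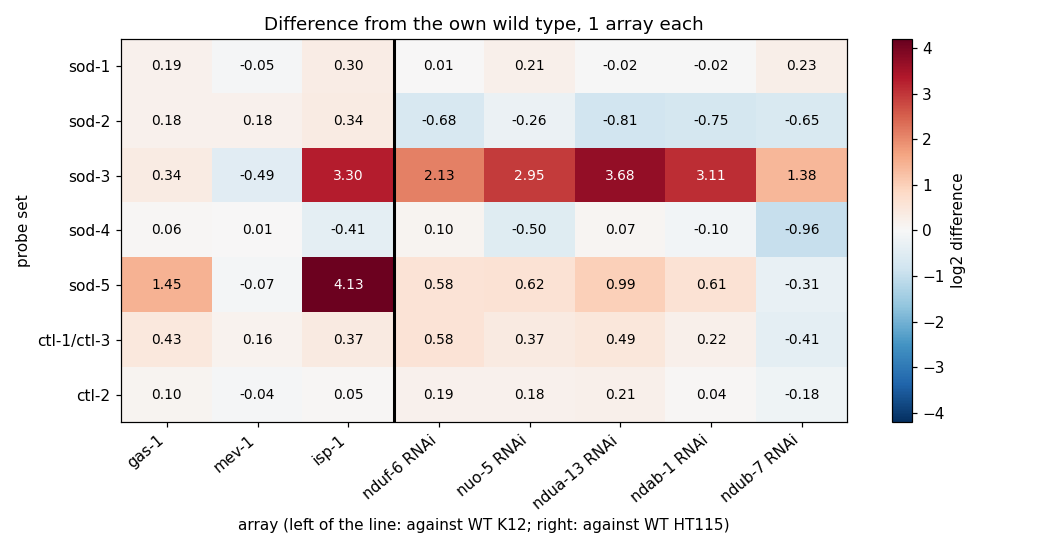
Difference in log2 level (colour and printed value) between each mutant array (columns) and the wild type array of its culture, for each probe set (rows). Each cell compares 1 array with 1 array. The highest cells are sod-5 in isp-1 (4.13), sod-3 in ndua-13 RNAi (3.68) and sod-3 in isp-1 (3.30), and the lowest is sod-4 in ndub-7 RNAi (-0.96).

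Counted over the 8 mutant arrays and 7 probe sets, 11 of 56 values were at least 1.5-fold above the own wild type and 5 were at least 1.5-fold below. All 11 belonged to sod-3 (6 of 8 arrays) and sod-5 (5 of 8), 4 of the 5 lower ones to sod-2 and 1 to sod-4. The isp-1 array had 2 of 7 probe sets at least 1.5-fold above wild type, where 5.99% of all probe sets were. The gas-1 array had 1 of 7 (background 7.34%) and mev-1 had 0 (8.63%). None of the 7 was at least 1.5-fold lower in gas-1 (9.38%), mev-1 (8.27%), isp-1 (7.34%) or nuo-5 RNAi (11.2%). Among the RNAi arrays nduf-6 had 1 (8.20%), nuo-5 2 (9.12%), ndua-13 2 (11.1%), ndab-1 2 (11.6%) and ndub-7 1 (18.6%). The lower values came to 2 in ndub-7 RNAi (21.1%) and to 1 in each of ndua-13 (11.8%), ndab-1 (11.9%) and nduf-6 RNAi (9.89%).

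The K12 and HT115 wild types differed by at least 1.5-fold in 3 of the 7 probe sets, sod-2, sod-3 and sod-5, where 19.9% of all probe sets did. For sod-1 the sign of the small difference turned with the scaling, and the counts under other scalings were 2 with median-centred arrays and 3 with values as deposited.

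**Figure D3:**
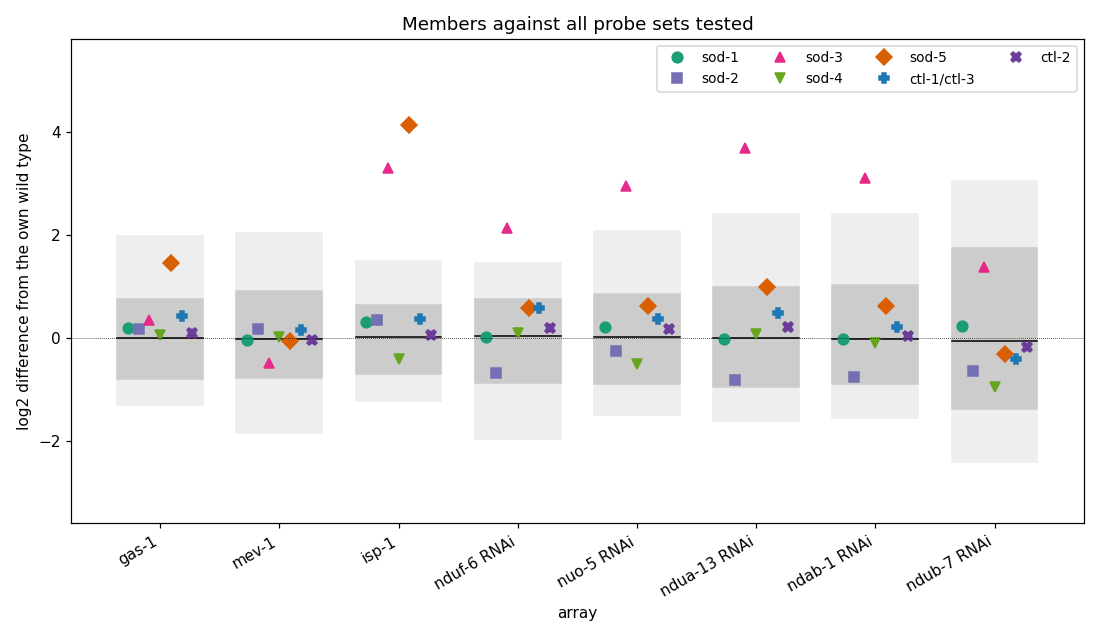
Log2 difference from the own wild type (vertical axis) of the 7 probe sets, as coloured points, in each mutant array (horizontal axis). Dark grey bars span the 5th to 95th percentile and light grey bars the 1st to 99th percentile of the 16911 probe sets tested, with the median as a line. The sod-3 points lie above the light bar in isp-1 and in all RNAi arrays other than ndub-7, and the sod-5 point lies above it in isp-1.

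The 3 missense arrays were tested together against the wild type on K12, which asks for a response common to defects in the 3 complexes. None of the 7 probe sets passed limma's test at an adjusted p of 0.05 (adjusted p = 1 for each), where 0.0296% of all 16911 did, and 0 of 7 had an unadjusted p under 0.05, against 3.04% of all. The difference was 1.05 ± 1.37 for sod-3 and 1.84 ± 1.29 for sod-5 (log2, SE, 3 arrays against 1), with group means of 7.89 ± 1.99 and 4.91 ± 2.13 (SD, n = 3). Without isp-1 the difference was -0.07 for sod-3 and 0.69 for sod-5, and without mev-1 it was 1.82 and 2.79. The other 5 probe sets differed by -0.12 (sod-4) to 0.32 (ctl-1/ctl-3). The median over the 7 was 0.23, against 0.00 over all probe sets.

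The RNAi animals were tested against the HT115 wild type, to ask what feeding against single complex I subunits shared. Again 0 of 7 probe sets passed limma's test, where 0.414% of all did, and 1 had an unadjusted p under 0.05, against 7.98% of all. That one was sod-2, at -0.63 ± 0.20 (log2, SE, 5 arrays against 1; 95% confidence interval -1.09 to -0.17), with adjusted p = 0.401 and lower in 5 of 5 arrays. The difference of sod-3 was larger but less certain, at 2.65 ± 1.30 (-0.34 to 5.64; adjusted p = 0.688), higher in 5 of 5. Its error came from a spread shared by missense and RNAi arrays. In the 6 HT115 arrays alone the error of sod-3 was 0.83 and its limma adjusted p 0.582, within a range of 0.459 to 0.921 over all alternatives. The other 5 probe sets lay between -0.28 (sod-4) and 0.50 (sod-5), each with an interval that holds 0. The median over the 7 was 0.09, against 0.00.

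No strain had a second array. The error of these tests is therefore the spread among different mutants, biological or technical, and the lone wild type array was taken to have the same spread.

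**Figure D4:**
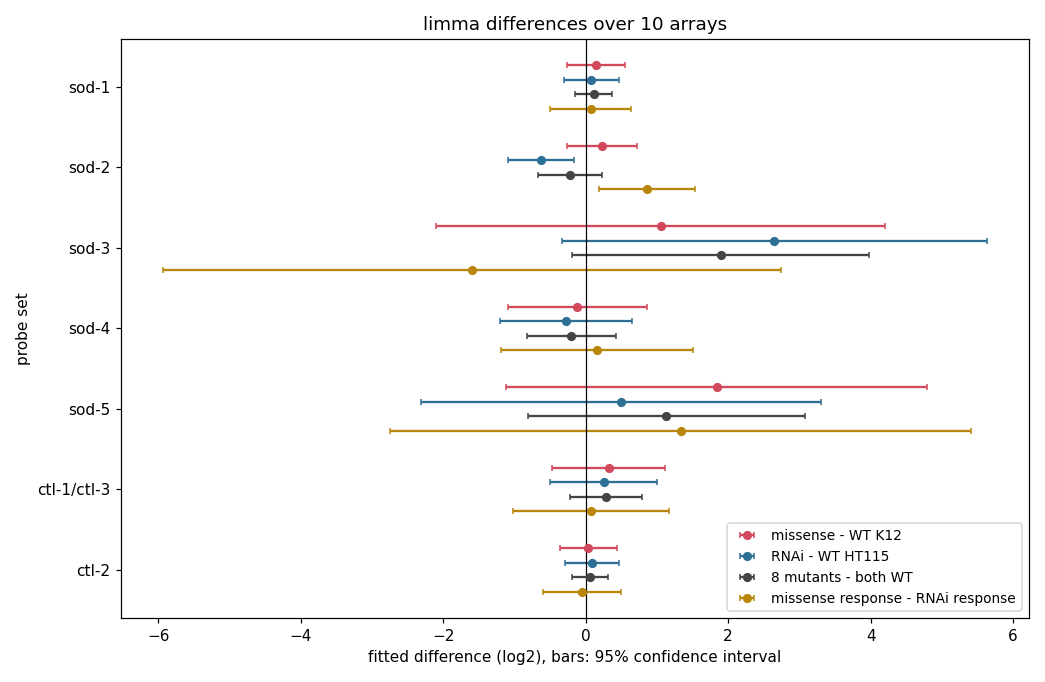
Fitted log2 difference (horizontal axis) of each probe set (vertical axis) in 4 limma comparisons over the 10 arrays. Points are estimates and bars 95% confidence intervals. The intervals of sod-2 exclude 0 for RNAi against wild type (-1.09 to -0.17) and for the difference between the responses (0.19 to 1.53), and neither passed after adjustment over 16911 probe sets.

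All 8 mutants were also compared with both wild types, with a term for culture. In this comparison 0 of 7 probe sets passed limma's test (0.0177% of all did) and 0 had an unadjusted p under 0.05 (6.99% of all). The difference was 1.89 ± 0.93 for sod-3 (adjusted p = 0.760; higher in 7 of 8 arrays) and 1.13 ± 0.86 for sod-5 (adjusted p = 0.925; higher in 6 of 8). Without isp-1 the value of sod-5 was 0.58 and that of sod-3 1.44. Without the K12 wild type sod-3 came to 2.65 and sod-5 to 0.50, and without the HT115 wild type to 1.05 and 1.84. With the culture term, each such fit reduces to the comparison of the other culture, so these values repeat the RNAi and missense differences. The interval for ctl-2 ran from -0.19 to 0.32 and that for sod-1 from -0.15 to 0.37, and both hold 0.

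The missense and RNAi responses were compared directly. Of the 7 probe sets 0 passed limma's test (0.0473% of all did), and 1, sod-2, had an unadjusted p under 0.05 (4.17% of all). Its missense response exceeded its RNAi response by 0.86 ± 0.29 (log2; adjusted p = 1). All missense arrays on one side of their wild type and all RNAi arrays on the other side of theirs, as for sod-2, was the pattern of 6.36% of all probe sets. The K12 and HT115 wild types, which enter this difference, were 0.91 apart. For sod-3 the difference between responses was -1.60 ± 1.89 and for sod-5 it was 1.34 ± 1.77, both with adjusted p = 1. Without isp-1 these values were -2.72 and 0.19, and without mev-1 they were -0.83 and 2.29.

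Other genes of superoxide and peroxide chemistry were read from a list of 24, of which 22 had a probe set of their own past the filter. With limma, 0 of 22 passed in the missense, RNAi and joint comparisons, and the medians were 0.05, 0.04 and 0.04. An unadjusted limma p under 0.05 was found for 2, 1 and 1, where 3.04%, 7.98% and 6.99% of all probe sets had one. In isp-1, 17 of the 22 were above wild type, with a median of 0.20, where 53.3% of all probe sets were above it. This was the highest count of the mutant arrays. The others had 10 to 13 of the 22 above wild type, with medians from -0.04 to 0.08. The largest differences in the missense comparison were those of gpx-3 at -1.11 ± 0.40 and gpx-4 at -0.91 ± 0.50, named as glutathione peroxidases. In the RNAi comparison they were prdx-6, a peroxiredoxin, at -0.78 ± 0.25, and gpx-4 at -0.51 ± 0.47.

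Genes known to be raised by DAF-16, as sod-3 is, lay on both sides of wild type, with array medians from -0.64 in ndub-7 RNAi to 0.31 in ndua-13 RNAi. With limma, 0 of 12 passed in either group comparison and 0 had an unadjusted p under 0.05 (3.04% and 7.98% of all probe sets). The medians were -0.12 in the missense and 0.14 in the RNAi comparison. In isp-1, where sod-3 was 3.30 above wild type, the median of these 12 was 0.03, with 7 above and 4 below. The extremes there were hsp-12.3, of the small heat shock family, at 12.54 against 10.10 in the wild type, and scl-1 at 3.13 against 4.69, both named after their values were seen. In the RNAi comparison the largest differences were hsp-12.6 at 1.94 ± 2.26 and scl-1 at 1.63 ± 1.19, and in the missense comparison scl-1 at -2.05 ± 1.25 and dod-6 at -0.43 ± 0.35. The level of scl-1 was under the filter level of 2.60 in the HT115 wild type (2.45), gas-1 (2.57) and mev-1 (2.23) and in nduf-6 (2.47) and ndub-7 RNAi (2.54), so the size and rank of its differences are uncertain.

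The mRNA of daf-16 itself, named outside the rule for list genes, stood at 10.46 in the K12 wild type and between 10.13 and 10.58 in the missense mutants. In HT115 culture it stood at 9.53 in the wild type, 10.29 in nduf-6 RNAi, 8.60 in nuo-5, 10.36 in ndua-13, 10.04 in ndab-1 and 10.13 in ndub-7. It was thus above wild type in 4 of 5 RNAi arrays and lower on HT115 than on K12 between the wild types, with a fitted RNAi difference of 0.35 ± 0.59 (limma adjusted p = 1). Of 24 regulators of stress and lifespan past the filter, 0 passed limma's test in the missense, RNAi or joint comparison. An unadjusted limma p under 0.05 was found for 1, 1 and 2 (3.04%, 7.98% and 6.99% of all probe sets). The largest differences were aak-2, a subunit of AMP-activated kinase, at -0.50 ± 0.25 and pdk-1 at -0.48 ± 0.43 in the missense comparison, and skn-1, a transcription factor of the oxidative stress response, at 0.72 ± 0.30 and the kinase gene jnk-1 at -0.57 ± 0.29 in the RNAi comparison.

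Manganese and copper are the metals of these enzymes, and the gene furthest from wild type among their transporters was smf-3, a manganese importer of the NRAMP family. Its log2 level was 5.38 in the K12 wild type, with gas-1 at 3.95, mev-1 at 4.21 and isp-1 at 3.18. In HT115 culture it was 5.49 in the wild type and 4.27 in nduf-6 RNAi, 3.05 in nuo-5, 3.51 in ndua-13, 3.14 in ndab-1 and 2.91 in ndub-7. It was below wild type in 8 of 8 mutants, where 26.3% of all probe sets were below in all 3 missense arrays and 17.8% in all 5 RNAi arrays. The share of all probe sets below in all 8 was not computed.

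The fitted difference of smf-3 was -1.60 ± 0.55 in the missense, -2.11 ± 0.53 in the RNAi and -1.87 ± 0.37 in the joint comparison, with limma adjusted p = 1, 0.253 and 0.319. The mutant levels approach the filter level of 2.60, so these sizes are uncertain. The copper chaperone gene cuc-1 stood at 0.46 ± 0.34 in the missense and 0.84 ± 0.32 in the RNAi comparison (adjusted p = 1 and 0.544). With limma, 0 of 4 transporters and chaperones past the filter passed in any of the 3 comparisons. An unadjusted limma p under 0.05 was found for 1, 2 and 2 (3.04%, 7.98% and 6.99% of all probe sets).

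Of 14 genes of peroxisome import and peroxisomal beta-oxidation, the compartment of ctl-2, 0 passed limma's test in the missense, RNAi and joint comparisons. An unadjusted limma p under 0.05 was found for 1, 0 and 0 (3.04%, 7.98% and 6.99% of all probe sets), and the medians were 0.07, 0.04 and 0.15. The largest differences were prx-19 at 0.59 ± 0.22 and prx-3 at 0.44 ± 0.29 in the missense, and prx-6 at 0.65 ± 0.35 and prx-12 at 0.59 ± 0.40 in the RNAi comparison, all named as peroxisome assembly factors.

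Genes with a pattern like that of each probe set other than ctl-1/ctl-3, which belongs to no single gene, were sought by the Pearson correlation of log2 levels over the 10 arrays, among about 6503 genes that vary at least as much as the median probe set. For sod-3 the closest were F16C3.1 (r = 0.927), E01G4.3 (0.926) and ncs-6 (0.903), the only 3 genes with r of at least 0.9, and without isp-1 their r was 0.905, 0.924 and 0.842. For sod-5 they were hsp-16.20, of the small heat shock family, R12G8.1 and Y9C9A.16, with r = 0.978, 0.968 and 0.961. The level of hsp-16.20 was 5.57 in isp-1 and 4.08 in gas-1, against 2.78 in the K12 wild type, and without isp-1 the 3 values of r were 0.892, 0.831 and 0.927. R12G8.1 was under the filter level in all arrays other than gas-1 (3.56) and isp-1 (4.80), so its likeness rests on those arrays. Outside gas-1 and isp-1, hsp-16.20 stood at 2.70 to 3.36 and Y9C9A.16 at 2.53 to 3.10. These levels are near or under the filter level, so the likeness of both genes in those arrays is uncertain.

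For sod-2 the closest genes were sars-2, named as a seryl-tRNA synthetase, che-13 and R12C12.7, with r of 0.967, 0.961 and 0.957. The level of sars-2 was 10.39 in the HT115 wild type and 10.10 in nuo-5 RNAi, its highest arrays as for sod-2, while che-13 was under the filter level in most arrays. For sod-4 they were let-23, the EGF receptor gene, cyk-1, a formin gene, and C32F10.4 (0.962, 0.956 and 0.948), each lowest in ndub-7 RNAi. For ctl-2 they were the nuclear hormone receptor gene nhr-90, Y54F10AR.2 and nhr-64 (0.933, 0.925 and 0.924), and for sod-1 hach-1, K08C7.1 and ppat-1 (0.872, 0.871 and 0.864), where no gene reached 0.9. These values describe likeness in the 10 arrays, which share cultures and wild types, and carry no test.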

How the data were processed

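The authors deposited 1 log2 value per probe set and array; the scale was read from the values (1.43 to 16.01), and how probes were summarised and arrays normalised is not stated in the sources used here. Array medians lay between 5.88 and 6.01, a spread of 0.13 that exceeded the limit of 0.1, so quantile normalisation was applied across all arrays. The 22625 probe sets included 77 controls, which were dropped. GEO's platform annotation, updated through Entrez identifiers and the RefSeq table of WBcel235 (names only), gave 1 symbol to 20766 probe sets, several to 887 and none to 895. Probe sets with a mean under the 25th percentile (2.60) were left out, leaving 16911 for limma 3.58.1 (R 4.3.3; mean-variance trend, two-sided), with Benjamini-Hochberg adjustment over all 16911, at an adjusted p of 0.05. The fit had 4 groups (6 residual degrees of freedom) or, for the 8 mutants together, terms for culture and mutant (7). The fits were tested on simulated data in which wild type and mutant arrays had the same spread. Such data cannot show whether the lone wild type arrays had that spread. Single arrays were compared by size, with a move set at 1.5-fold. Precision is limited by having 10 arrays. In the fit with 4 groups, p-values measure only the spread among the missense arrays and among the RNAi arrays. For the 8 mutants together they measure only the spread left after the terms for culture and mutant.

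The members, lists and rules were chosen with earlier results of these data known. Named were all member probe sets, the 2 largest differences of each list in the missense and in the RNAi comparison, and the 3 genes closest in correlation to each member with a probe set of its own. Outside this rule, daf-16 and hsp-12.3 were named after their values were seen. Genes in lists were read from the probe set with the highest mean. Alternatives were other normalisations, filters, variance models and gene-level summaries, K12 or HT115 arrays alone, and leaving out each array.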

Additional observations from a re-analysis of the deposited data

Results flagged for a closer look

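In the RNAi arrays, sod-2 in the nuo-5 RNAi array (11.49) lay apart from the other 4, which ran from 10.94 to 11.10: its gap to the nearest was 0.717 of the whole range, above Dixon's limit of 0.71 for 5 samples. Chance alone passes this limit in about 1 of 20 groups, and 7 were looked at. The same probe set stood above wild type in all 3 missense arrays and below it in all 5 RNAi arrays, and the missense response exceeded the RNAi response by 0.86 (log2; limma adjusted p = 1).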

How the results depend on the processing

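No member probe set was called in any of the 4 limma comparisons, with the settings reported or under any alternative run. Of 471 member differences recomputed under an alternative, 7 changed direction and 0 were called. Many of the 471 could not change direction, so the count of 7 does not measure stability. Filters, variance models and gene-level settings leave a member's difference as it was. Leaving out an RNAi array does the same for the missense difference, and leaving out a missense array for the RNAi difference. Without isp-1, the missense difference was -0.07 for sod-3 and 0.03 for sod-4, and the difference between responses was -0.01 for sod-1, which was also -0.04 with values as deposited. Without ndub-7 RNAi the difference between responses was -0.09 for ctl-1/ctl-3 and -0.01 for sod-4. The joint difference of sod-2 was 0.23 without the HT115 wild type, which repeats its missense difference. The filter at the median probe set removes sod-5 and the gene-level settings remove ctl-1/ctl-3, so neither has a value there. The moves of single arrays numbered 16 of 56 at 1.5-fold and 8 at 2-fold. Leaving out each array in turn gave -0.07 to 1.82 (sod-3, missense), 0.69 to 2.79 (sod-5, missense), 1.05 to 2.65 (sod-3, joint), 0.50 to 1.84 (sod-5, joint), -0.20 to 0.03 (sod-4, missense), -0.63 to 0.23 (sod-2, joint), and, for the difference between responses, -2.72 to -0.83 (sod-3), 0.19 to 2.29 (sod-5), -0.09 to 0.15 (ctl-1/ctl-3), -0.01 to 0.17 (sod-1) and -0.01 to 0.31 (sod-4). The ends of the joint ranges given here come from leaving out a wild type, and they repeat the missense and RNAi differences. Fewer samples are the alternative itself in the leave-out fits, and otherwise the cause was not tested.

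The number of probe sets called over the whole array was less stable. For missense against wild type it was 5, and 116 with no filter, 1 with the filter at the median probe set, 1 with no trend and 0 with K12 arrays only. For RNAi it was 70, and 402 with no filter, 0 with the filter at the median and 25 with HT115 arrays only. For the 8 mutants it was 3, and 5 with values as deposited, 15 with no filter, and 0 with median-centred arrays, the filter at the median, no trend, the mean of a gene's probe sets, or (added after seeing the data) no culture term. For the difference between responses it was 8, and 5 with median-centred arrays, 341 with no filter, 1 with the filter at the median and 5 with no trend. Leaving out 1 array gave 1 to 12, 45 to 103, 0 to 70 and 5 to 12 calls. For the 8 mutants the highest of these counts came without the K12 wild type, where the joint fit reduces to the RNAi comparison. No paired analysis was possible because each wild type was a single array.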
